A study of Mus musculus with 38 samples.

Results

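Here 4 of the 38 RNA-seq libraries of this mouse lung adenocarcinoma series were compared: 2 vehicle and 2 4-hydroxytamoxifen (4-OHT) libraries of the organoid line 1027B carrying a short hairpin RNA labelled shNKX2-1. They were chosen by that label and by their treatment, without use of any measured value. The 4 libraries of the same line with a scrambled hairpin (shScramble) were used only for the shared estimate of the spread and to show where the response differed. Line 1027B was grown from a single tumour, in Matrigel with L-WRN conditioned medium, as organoids, which are clusters of tumour cells kept in a gel. All 8 libraries carry the alleles KrasFSF-G12D and p53frt, the floxed alleles Foxa1flox and Foxa2flox, and Rosa-FSF-CreERT2, on the strain Mixed 129/B6. The FSF and frt alleles respond to Flp recombinase, and CreERT2 is a Cre recombinase that 4-OHT activates, which then excises the floxed parts of Foxa1 and Foxa2. Treatment lasted 72 hours, with ethanol as the vehicle or with 4-OHT at 2 uM. The interval from treatment to RNA extraction is unknown here, since the labels give none for RNA. No line without floxed alleles was in this experiment, so effects of 4-OHT or of Cre itself cannot be told apart from those of losing the genes. It is not stated whether replicate libraries were grown as separate cultures, so p-values measure only the spread between these libraries, which may be technical. Replicates are numbered here in deposit order, which pairs nothing.

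FoxA proteins are forkhead transcription factors that open chromatin and act in the development of lung, liver, stomach and gut. Nkx2-1 is the homeodomain factor that defines lung and thyroid epithelium, and it works with FoxA proteins at surfactant and other lung genes. In lung adenocarcinoma, loss of Nkx2-1 is known to let FoxA factors sustain gastric programmes, and the hairpin experiment asks how removing FoxA proteins acts when Nkx2-1 is lowered.

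One of the 4-OHT libraries stood apart from the other libraries before any comparison was made. Total counts per library were 13.6 to 16.3 M (mega) and genes with a count numbered 18837 to 19299. Genes of the mitochondrial genome held 2.29 to 4.30% of counts in 7 libraries and 11.7% in 4-OHT replicate 2. Ribosomal protein genes held 2.33% of counts in that library against 3.36 to 5.46% in the others, and its 50 most abundant genes held 20.1% against 12.5 to 15.1%. Across the 14465 genes tested, log2 counts per M counts (CPM) of 4-OHT replicates 1 and 2 correlated with Pearson r = 0.934, against 0.978 to 0.989 in the other 3 replicate pairs. The 4-OHT replicates differed by more than 1 log2 unit at 4442 genes (30.7%), of which 1713 were higher and 2729 lower in replicate 2. In the vehicle pair this held for 1003 genes (6.93%), and in the shScramble pairs for 579 (4.00%) and 1172 (8.10%).

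The disagreement ran along the base composition of transcripts. Replicate 2 minus replicate 1 correlated with transcript GC content with r = -0.62 over the 14450 genes that had a GC value, against -0.08 to 0.02 in the other pairs, and with transcript length with r = -0.005. In the tenth of genes with the lowest GC content the median difference was 0.81, and in the tenth with the highest it was -1.32 on the log2 scale. Genes higher in replicate 2 by over 1 log2 unit had a median GC content of 43.9%, and those lower 56.2%, against 49.6% over all genes tested. These correlations are across genes of 2 libraries, which share depth and normalisation, and carry no p. The part of this difference in the results was not tested, so counts are also given without replicate 2. A gene named below as having risen or fallen with 4-OHT under the Nkx2-1 hairpin also passed without it, unless its adjusted p without replicate 2 is printed and is not under the threshold.

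**Figure D1:**
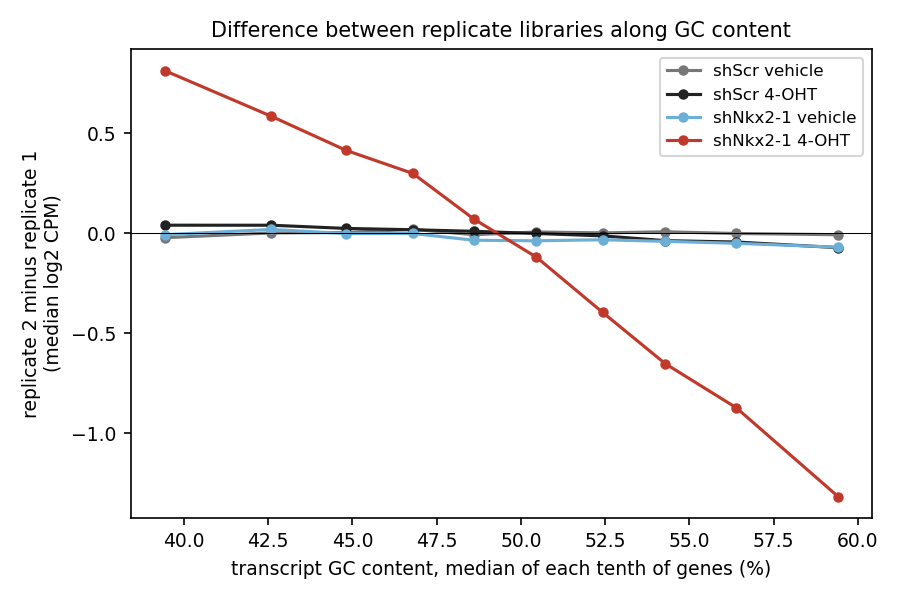
Median log2 CPM difference between replicate 2 and replicate 1 (y axis) in 10 equal groups of genes ordered by transcript GC content (x axis, percent), for the 4 groups of libraries (shScr, scrambled hairpin). Only the line of the shNKX2-1 4-OHT pair slopes, from 0.81 to -1.32, while the other 3 pairs stay near 0.

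Single genes show the size of the disagreement. They were picked, after their values were seen, from the 15 largest differences in each direction among genes of at least 20 CPM in one of the pair. Lgr5, a receptor of intestinal and other stem cells, had 4.06 CPM in replicate 1 and 69.3 CPM in replicate 2. Mki67, the proliferation antigen Ki-67, had 201 and 975 CPM. In the other direction, the ferritin light chain gene Ftl1 had 5321 and 743 CPM, the stress-induced cytokine Gdf15 had 124 and 9.66 CPM, and the transcription factor Cebpa had 54.9 and 6.55 CPM. With all libraries none of these 5 genes passed edgeR's test of 4-OHT against vehicle. Cebpa, at 250.2 and 195 CPM with vehicle, was lower in both treated libraries and passed without replicate 2 (log2 change -2.03, adjusted p = 0.00301, against -2.85 and 0.0667 with it).

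Nkx2-1 RNA was lower in the hairpin libraries, modestly with vehicle (means of 315 against 426 CPM) and more with 4-OHT (194 against 383 CPM). Its levels were 350 and 280 CPM with vehicle and 181 and 207 CPM with 4-OHT, against 424 and 428 CPM, and 359 and 408 CPM, in the shScramble libraries. Each shNKX2-1 library was below each shScramble library of the same treatment, but the vehicle groups differed by a log2 change of -0.44 ± 0.22 (SE), adjusted p = 0.755 in edgeR's quasi-likelihood test with Benjamini-Hochberg adjustment. Adjusted p-values in the following are from this test, over all genes tested, with 2 libraries per group, and a gene is said to have risen or fallen where its adjusted p was under 0.05. Between 4-OHT and vehicle with the Nkx2-1 hairpin, the log2 change of Nkx2-1 was -0.70 ± 0.22 (adjusted p = 0.105, and -0.80 with adjusted p = 0.0545 without replicate 2), and the groups did not overlap. With counts corrected for GC content, an alternative chosen after seeing the data, its change was -0.083 (adjusted p = 0.890).

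Foxa2, on chromosome 2 (148042877 to 148046969, minus strand, GRCm38), was nearly lost with 4-OHT. Its level was 85.9 and 66.7 CPM with vehicle and 1.89 and 0.327 CPM with 4-OHT. Both treated libraries were far below both vehicle libraries, with a log2 change of -6.04 ± 0.58 (adjusted p = 0.00175, and -5.33 with adjusted p = 0.000529 without replicate 2). Foxa1, on chromosome 12 (57540628 to 57546916, minus strand), had 34.1 and 27.3 CPM with vehicle and 21.9 and 19.7 CPM with 4-OHT. Its groups did not overlap, yet the log2 change of -0.56 ± 0.27 did not pass the test (adjusted p = 0.236, and 0.344 without replicate 2), and with the GC correction it was -0.22 (adjusted p = 0.597). Counts are per whole gene, and which part of Foxa1 is floxed is not given in the sources used, so a transcript lacking that part may still be counted. In the shScramble libraries Foxa1 went from 32.1 and 22.1 CPM to 20.1 and 18.5 CPM. Foxa3, the third FoxA gene, which is not floxed, had 20.3 and 25.3 CPM with vehicle and 4.20 and 2.37 CPM with 4-OHT. It fell by 2.78 ± 0.43 on the log2 scale (adjusted p = 0.00973, and 0.0192 without replicate 2).

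**Figure D2:**
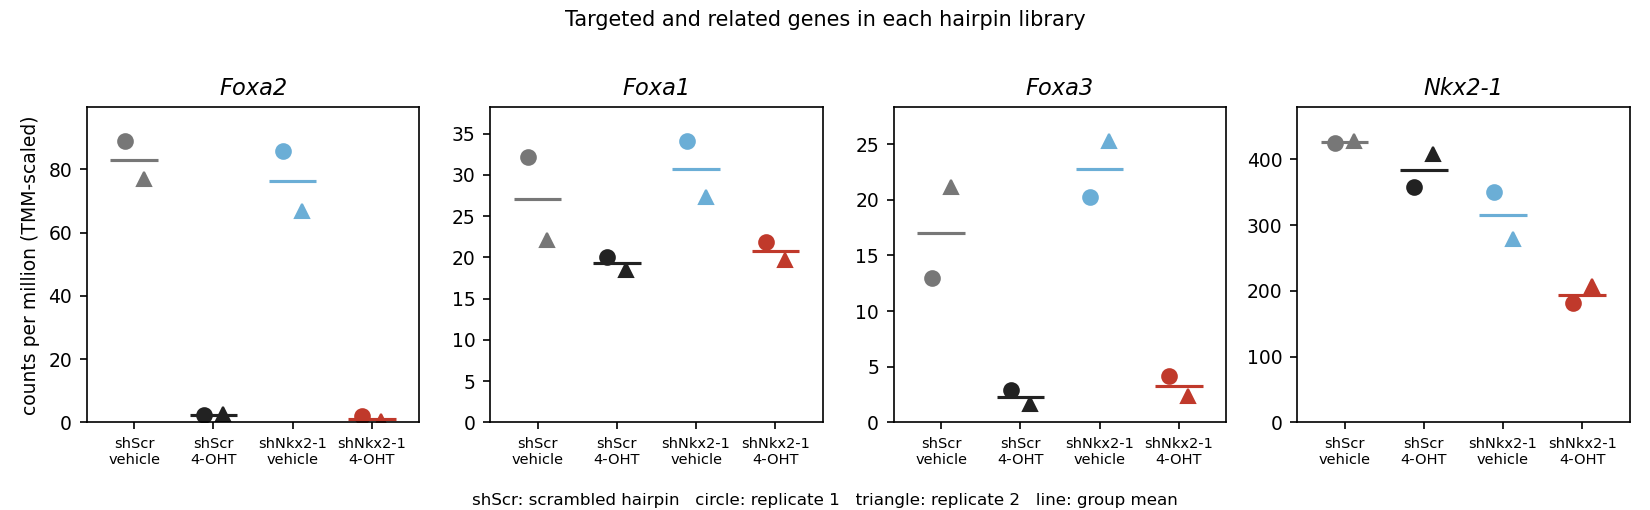
CPM scaled by TMM (y axis, linear, from 0) of Foxa2, Foxa1, Foxa3 and Nkx2-1 in each of the 8 libraries by group (x axis; shScr, scrambled hairpin), with circles for replicate 1, triangles for replicate 2 and lines for group means. Foxa2 is at 1.89 and 0.327 CPM in the shNKX2-1 4-OHT libraries, whereas Foxa1 stays at 21.9 and 19.7 CPM.

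With 4-OHT, 394 of the 14465 genes tested rose (2.72%) and 525 fell (3.63%), of which 367 and 484 were protein coding. At least 4-fold changes in the fit were reached by 214 of the genes that rose and 363 of those that fell. The median log2 change over all genes tested was 0.02. Without 4-OHT replicate 2, 528 of 15071 genes rose (3.5%) and 513 fell (3.4%), and 328 of the higher and 410 of the lower genes were called in both fits. In the fit of all libraries, each of the 919 called genes lay on the same side of the vehicle mean in both 4-OHT libraries, and for each the 2 groups did not overlap. A test on 2 libraries per group favours such genes, and the same shares over all genes tested are not given. The differences of the 2 libraries from the vehicle mean correlated with r = 0.97 over these genes and 0.68 over all genes tested. Both differences use the same 2 vehicle libraries. This raises r and every count of equal signs given here, so they are no independent check of replicate 2. Of the 1039 genes called without replicate 2 and tested in both fits, replicate 2 had the same sign at 972 (93.6%). The change was larger in replicate 2 for 284 (72.1%) of the genes that rose and 348 (66.3%) of those that fell, with medians of 1.93 in replicate 1 and 2.16 in replicate 2, and of -2.40 and -2.95. Median GC content was 46.2% among the genes that rose and 51.4% among those that fell.

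**Figure D3:**
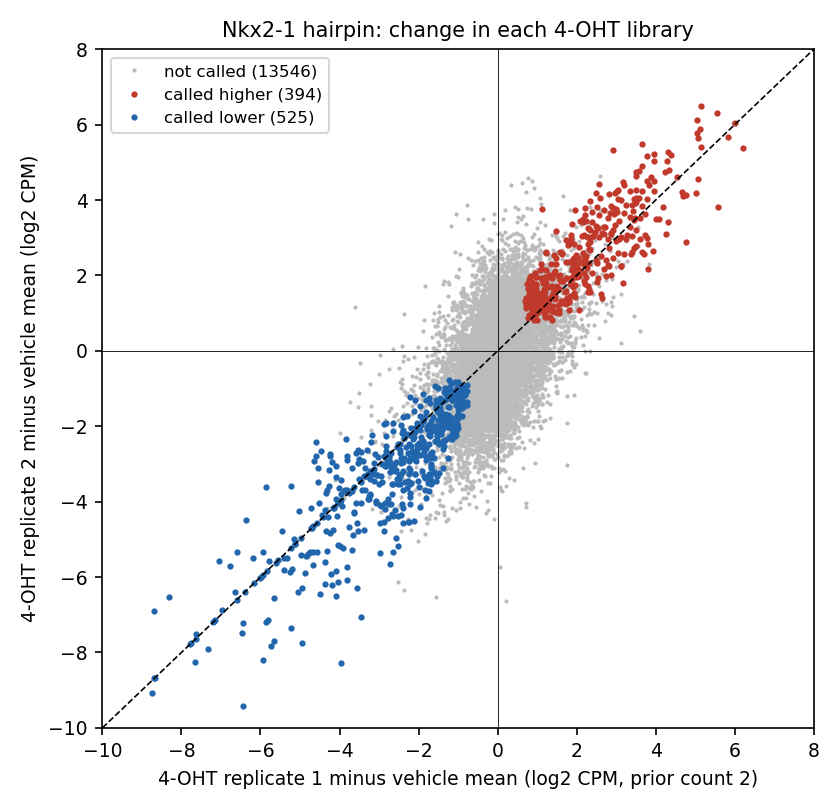
Difference of each 4-OHT library from the mean of the 2 vehicle libraries with the Nkx2-1 hairpin, in log2 CPM with a prior count of 2, for replicate 1 (x axis) and replicate 2 (y axis); each point is a gene, red and blue points are the 394 genes called higher and the 525 called lower, and the dashed line marks equal change. The called genes lie in the quadrants of equal sign, while the grey cloud of other genes is stretched along the axis of replicate 2.

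The largest decreases included genes of secreted proteins. Trf, which encodes the iron carrier transferrin, had 775 and 1195 CPM with vehicle and 0.338 and 0.409 CPM with 4-OHT, a log2 change of -11.34 ± 0.59 (adjusted p = 0.000744). Its shScramble vehicle libraries had only 3.36 and 6.89 CPM. Sftpc, which encodes surfactant protein C, had 61.8 and 218 CPM with vehicle and 0.135 and 0.0818 CPM with 4-OHT, that is 3 counts in all, and a ratio of 0.000762 to vehicle (95% counting interval 0.000157 to 0.00223). Muc5b and Muc5ac, which encode gel-forming mucins, fell from 1425 and 2264 CPM to 13.5 and 37.9 CPM, and from 510 and 405 CPM to 4.06 and 8.59 CPM. In all 4 genes both treated libraries were more than an order of magnitude below both vehicle libraries.

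Further genes among the 15 largest decreases were Creb3l1, a membrane-bound transcription factor of secretory cells; Ugt2b34, a glucuronosyltransferase with close copies whose reads it may share; Lgals4, a galectin of gut epithelium; and Cyp2s1, a cytochrome P450. With them were the lung chemokine Cxcl15, the aminopeptidase Enpep, the LIM-domain gene Csrp2, the membrane protein gene Sidt1, Baiap2l2, which acts on membrane protrusions, and Foxa2 itself. Creb3l1 had 146 and 149 CPM with vehicle and 1.56 and 0.0818 CPM with 4-OHT. Lgals4 had 255 and 131 CPM, and then 2.84 and 0.491 CPM. Cxcl15 had 851 and 1103 CPM, and then 17.9 and 4.09 CPM. In these 3 genes replicate 2 was the lower of the treated libraries, while in Muc5b and Muc5ac it was the higher. Fitted log2 changes of the 15 ran from -11.34 to -5.92, and each also passed without replicate 2, with adjusted p from 0.000377 to 0.0192.

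Of the 15 largest increases, the first 3 started from at most 2.00 CPM with vehicle. H60c, which encodes a ligand of the NKG2D receptor of natural killer and T cells, had 0.439 and 0.688 CPM with vehicle and 44.0 and 45.5 CPM with 4-OHT, a log2 change of 6.28 ± 0.37 (adjusted p = 0.000765). Lipk, a lipase of the differentiating epidermis, had 0.366 and 0.751 CPM, and then 37.5 and 33.8 CPM. Il1f9, which encodes interleukin 36 gamma of barrier epithelia, had 0.293 and 2.00 CPM, and then 31.1 and 52.5 CPM. In each of these 3 genes both treated libraries exceeded both vehicle libraries by more than an order of magnitude.

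The tight-junction gene Cldn3 rose from 1.90 and 1.31 CPM to 81.7 and 24 CPM, and the drug efflux transporter Abcg2 from 3.37 and 3.5 CPM to 55.2 and 67.2 CPM. Chil1, a chitinase-like protein gene, rose from 4.25 and 1.56 CPM to 91.2 and 63.8 CPM. Prl, which encodes prolactin, rose from 2.12 and 0.438 CPM to 17.4 and 37.2 CPM. Of these 4 genes, replicate 2 was the lower treated library at Cldn3 and Chil1 and the higher at Abcg2 and Prl. The other genes among the 15 largest increases were the prolactin-related Prl2c2 and Prl2c3, the protease inhibitor gene Ctla2a, Trim30a and Parp14, which are induced by interferon, the matrix proteoglycan gene Prelp, the F-BAR gene Pstpip2 and Padi1, a peptidylarginine deiminase. Fitted log2 changes of the 15 ran from 3.66 to 6.28, and each also passed without replicate 2, with adjusted p from 0.000145 to 0.0279.

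**Figure D4:**
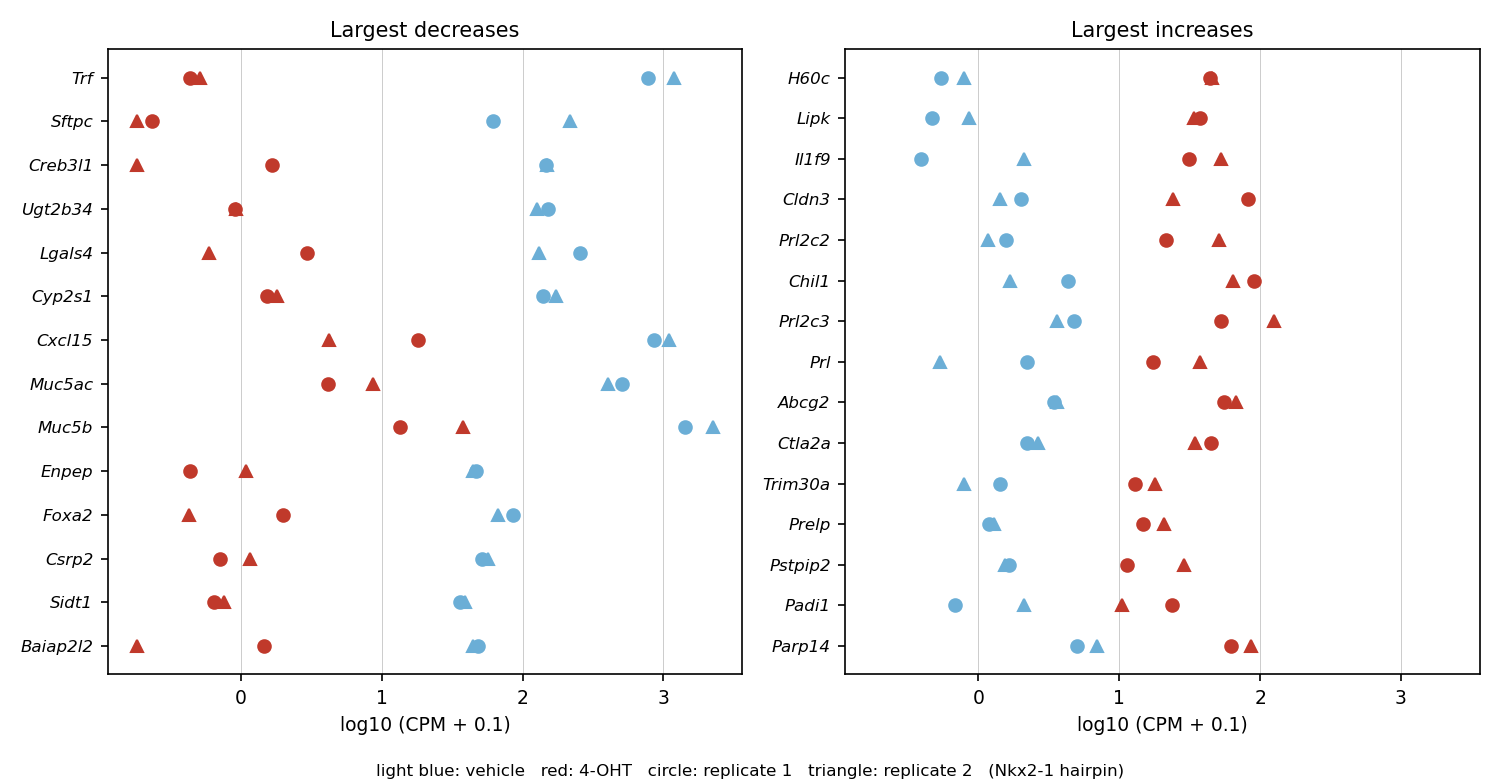
log10 of CPM plus 0.1 (x axis) in the 4 shNKX2-1 libraries for 14 of the 15 genes with the largest fitted decrease (left) and the 15 with the largest increase (right) among called genes with mean log2 CPM of at least 2; light blue is vehicle, red is 4-OHT, circles are replicate 1 and triangles replicate 2. Treated and vehicle libraries do not overlap at any of the 29 genes, which the rule for naming them required.

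Promoters of these genes were read for forkhead letters, since a FoxA factor was removed. RefSeq promoter windows (GRCm38.p6, 250 bases before to 50 after the start) were found for 7 of the 15 largest decreases (9 windows) and 11 of the 15 largest increases (15 windows). TGTTTAC or TATTTAC, on either strand, occurred in 1 of the 9 windows and in 0 of the 15. The same letters were in 4.47% of 12781 windows of genes tested and 6.55% of all 32851 windows. The match was in Cxcl15, at position -238 relative to the start site, and is printed in capitals. It is shown with the windows of Lgals4 and Enpep, which fell as far and hold no match. A match is a description of letters and no evidence of binding, and the windows leave out distal elements.
Cxcl15 (chr5:90794284-90794583, plus strand): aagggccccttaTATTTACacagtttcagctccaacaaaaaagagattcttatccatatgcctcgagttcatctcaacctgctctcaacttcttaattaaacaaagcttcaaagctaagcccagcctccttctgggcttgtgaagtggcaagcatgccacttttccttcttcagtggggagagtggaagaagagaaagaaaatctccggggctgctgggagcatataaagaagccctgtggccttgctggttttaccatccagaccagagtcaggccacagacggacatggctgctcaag
Lgals4 (chr7:28833544-28833843, plus strand): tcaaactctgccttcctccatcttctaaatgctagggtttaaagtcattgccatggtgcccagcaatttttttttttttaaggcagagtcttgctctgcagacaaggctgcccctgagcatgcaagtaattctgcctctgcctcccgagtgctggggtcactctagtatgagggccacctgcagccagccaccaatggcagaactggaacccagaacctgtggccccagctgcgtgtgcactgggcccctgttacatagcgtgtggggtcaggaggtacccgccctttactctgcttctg
Enpep (chr3:129332700-129332999, minus strand): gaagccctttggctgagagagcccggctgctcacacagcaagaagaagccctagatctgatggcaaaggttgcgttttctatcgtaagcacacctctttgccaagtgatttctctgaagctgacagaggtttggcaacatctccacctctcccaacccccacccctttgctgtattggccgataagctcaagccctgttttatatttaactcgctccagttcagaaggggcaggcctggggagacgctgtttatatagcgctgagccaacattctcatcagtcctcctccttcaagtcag

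Most tested genes of gastric epithelium fell. Of 22 listed genes 14 were tested, and 10 fell and 0 rose, against 3.63% and 2.72% of all genes. Their median log2 change was -5.09, or -3.96 with the 5 genes that had 0 counts with 4-OHT set at their bound, against 0.02 over all genes. Without replicate 2, 8 fell, with a median of -5.56. Besides Muc5ac, Vsig1, a junctional protein of stomach, had 40.5 and 44.4 CPM with vehicle and 0 and 0.327 CPM with 4-OHT. Gkn2, a gastrokine of surface mucous cells, had 5.93 and 9.45 CPM with vehicle and 0 counts with 4-OHT, so it was at least 70.4-fold lower on a floor of 3 counts over the group. Such floors and intervals cover counting error only, since no molecular identifiers were used and reads of 1 molecule may be counted more than once.

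The other gastric genes that fell are given because they complete the list. Tff1, a trefoil peptide, had 34.2 and 24.2 CPM with vehicle and 0 counts with 4-OHT, at least 259-fold lower. Gkn3 (6.88 and 51.0 CPM with vehicle) and the pepsinogen gene Pgc (2.71 and 58.5 CPM) also had 0 counts with 4-OHT. Their vehicle libraries differed widely from each other, and neither passed without replicate 2 (adjusted p = 0.0572 and 0.120). Ctse, Anxa10, Tspan8 and Gata4 fell by 2.69, 3.92, 1.22 and 2.31 on the log2 scale, with counts remaining in both treated libraries. Tff2, Capn8, Psca and Pdx1 did not pass.

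Intestinal genes and the hepatocyte nuclear factor network were also affected. Of 18 intestinal genes 9 were tested, and 4 fell and 1 rose, with a median log2 change of -2.23 (5 fell and 0 rose, median -1.99, without replicate 2). Vil1, the microvillus protein villin, had 205 and 198 CPM with vehicle and 29.2 and 13.2 CPM with 4-OHT. The guanylin gene Guca2a had 53.5 and 25.9 CPM, and then 10.02 and 6.87 CPM. Both were lower in each treated library. The glucose transporter gene Slc5a1 rose from 0.146 and 0.125 CPM to 1.29 and 0.982 CPM (adjusted p = 0.0446, and 0.0599 without replicate 2). The defining intestinal factors Cdx1 and Cdx2 had 0 counts in all 4 libraries.

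Among 8 tested genes of the hepatocyte nuclear factor network, 4 fell and 0 rose, with a median of -2.55 (5 fell, median -1.85, without replicate 2). Hnf4a, a nuclear receptor of liver and gut, had 206 and 163 CPM with vehicle and 7.58 and 4.42 CPM with 4-OHT, a log2 change of -4.93 ± 0.38 (adjusted p = 0.000765). Hnf4a was low in each treated library, as was Foxa3 above. Nr5a2 and Gata6 had fitted log2 changes of 0.64 and 0.08 and did not pass.

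Liver-type plasma protein genes showed the same direction as these factors. Of 25 listed, 12 were tested, and 7 fell and 0 rose, with a median of -5.48, or -3.52 with 3 genes at their bound (6 fell, median -5.96, without replicate 2). Itih2, an inter-alpha-trypsin inhibitor chain, had 48.7 and 33.8 CPM with vehicle and 0.0677 and 0 CPM with 4-OHT, a ratio of 0.00091 (95% counting interval 2.3e-05 to 0.00508). Rbp4, the retinol carrier, had 17.6 and 35.4 CPM, and then 0.0677 and 0.0818 CPM. Ttr, the thyroid hormone carrier transthyretin, had 82.1 and 36.6 CPM and then 0 counts, at least 518-fold lower. Apob, the main apolipoprotein of low-density lipoprotein, had 86.1 and 88.4 CPM, and then 11 and 4.99 CPM. All 4 were lower in each treated library. Ambp and Itih4 completed the genes that fell, and Ambp did not pass without replicate 2 (adjusted p = 0.0508).

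Lung genes changed in a divided way. Of 25 alveolar type 2 genes tested, 9 fell and 1 rose, with a median log2 change of -0.99 (8 fell and 3 rose, median -1.34, without replicate 2). The gene that rose with all libraries was Chil1. Of the 25 tested, 5 had a fitted change above 0 and 20 below. Sftpb, which encodes surfactant protein B, had 5368 and 2522 CPM with vehicle and 233 and 101 CPM with 4-OHT, a log2 change of -4.56 ± 0.53 (adjusted p = 0.00309). Sfta2, a surfactant-associated protein gene, had 56.6 and 48.8 CPM, and then 9.47 and 5.32 CPM. Sftpb and Sfta2 were lower in both treated libraries, as were Sftpc and Cxcl15 above. S100g, Il33, Lyz1, Dram1 and Lamp3 also fell, of which Lyz1 (adjusted p = 0.137) and Lamp3 (adjusted p = 0.081) did not pass without replicate 2. Reads of Lyz1 and its near copy Lyz2 may have been shared between them. Napsa, Ctsh, Muc1, Sftpd and Lpcat1 had fitted changes of -0.20, -0.10, 0.19, -0.83 and -0.68 and did not pass. Larger changes that did not pass with all libraries went both ways. Lcn2 and Slc34a2 had 1.57 and 1.02 (2.15 and 1.47 without replicate 2), and were higher in both treated libraries. Sftpa1 and Cebpa had -2.64 and -2.85, but Sftpa1 had only 1.02 and 0.876 CPM with vehicle and 0.271 and 0 CPM with 4-OHT.

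Of 16 alveolar type 1 genes tested, 4 fell and 1 rose, with a median of -0.64 (4 and 1, median -0.71, without replicate 2). Ager, the receptor RAGE, had 160 and 71.3 CPM with vehicle and 17.1 and 2.54 CPM with 4-OHT, and Clic5, a chloride channel family member, had 186 and 116 CPM, and then 28.9 and 13.2 CPM. Vegfa, the endothelial growth factor gene, had 660 and 672 CPM, and then 228 and 129 CPM (adjusted p = 0.0259, and 0.0517 without replicate 2). In all 3 genes replicate 2 was the lower of the treated libraries. Scnn1g, a sodium channel subunit gene, also fell. Cav1, the caveolin of flat type 1 cells, rose from 92.2 and 41.2 CPM to 285 and 210 CPM (adjusted p = 0.0314). Its GC content was 42.6%, and with the GC correction its adjusted p was 0.0526.

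Genes of the airway and of the embryonic lung tip fell where they changed. Of 9 airway secretory genes tested, 5 fell and 0 rose, with a median of -6.17 (4 fell, median -5.96, without replicate 2). Besides Muc5b, the secretoglobin gene Scgb3a1 (23.6 and 35.7 CPM with vehicle) and the antimicrobial lectin gene Reg3g (14.3 and 48.3 CPM) had 0 counts with 4-OHT, at least 271-fold and 294-fold lower. Both genes had at most 0.135 CPM in the shScramble vehicle libraries. Cbr2 and Spdef, with 1 and 2 counts left, also fell, but did not pass without replicate 2 (adjusted p = 0.0707 and 0.0637). Of 13 lung tip genes, 6 fell and 0 rose, with a median of -0.91 (4 fell, median -0.82, without replicate 2). The transcription factor gene Foxp2 had 26.1 and 26.2 CPM, and then 1.15 and 0.409 CPM. The carboxypeptidase gene Cpm had 89.8 and 70.5 CPM, and then 11.5 and 10.8 CPM. Foxp1 and the proto-oncogene Mycn fell with log2 changes of -0.95 and -2.39, Mycn not without replicate 2 (adjusted p = 0.0611), while Sox9 and Etv5 had changes of -0.18 and -0.43 and did not pass.

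Ligands of the hedgehog and bone morphogenetic protein pathways were lower as well. Of 10 genes tested in these pathways, 3 fell and 0 rose, with a median of -1.38 (2 fell, median -0.99, without replicate 2). Shh, the ligand sonic hedgehog, had 8.20 and 3.38 CPM with vehicle and 0.0677 and 0 CPM with 4-OHT, a ratio of 0.00661 (95% counting interval 0.000166 to 0.0374). Bmp7 had 15.1 and 19.3 CPM, and then 0.271 and 0.245 CPM. Bmp4 had 167 and 137 CPM, and then 77.8 and 55.5 CPM (adjusted p = 0.0395, and 0.0629 without replicate 2). All 3 ligands were lower in each treated library. Of their targets, Ptch1, Smad7 and Smad6 had changes of -0.20, -0.38 and -1.23 and did not pass. These 3 do not stand for all targets. Of the 10 genes tested, 9 had a fitted change below 0, and 7 had an unadjusted p under 0.05 in edgeR, against 3566 of all 14465.

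Some genes of innate immunity and antigen presentation rose. Of 20 interferon response genes tested, 7 rose and 0 fell, with a median of 1.61 (8 rose, median 1.96, without replicate 2). Ddx58, which encodes the viral RNA sensor RIG-I, had 12.6 and 12.6 CPM with vehicle and 50.3 and 59.1 CPM with 4-OHT, a log2 change of 2.12 ± 0.24 (adjusted p = 0.00297). Xaf1 had 1.39 and 1.13 CPM, and then 6.43 and 7.86 CPM. Oas1a, an enzyme activated by double-stranded RNA, had 1.61 and 1.69 CPM, and then 8.73 and 5.32 CPM. Treated libraries were above vehicle libraries at each of these. Oasl2, Rsad2, Cmpk2 and Usp18 also rose, from at most 0.22 CPM with vehicle. Isg15 and Ifit1 had fitted changes of 1.99 and 1.68 and did not pass. The Oas genes have close paralogs, and the handling of reads that fit several copies is not given in the sources used.

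Of 12 antigen presentation genes tested, 4 rose and 0 fell, with a median of 0.95 (6 rose, median 1.44, without replicate 2). The class II gene H2-Ab1 had 0 counts with vehicle and 4.53 and 7.69 CPM with 4-OHT, at least 58.9-fold higher. H2-Aa had 1 count with vehicle, 0.0732 CPM in replicate 1, and 3.11 and 5.32 CPM with 4-OHT, a ratio of 122 (95% counting interval 21.4 to 4857). H2-Eb1 and the immunoproteasome subunit gene Psmb8 rose too, Psmb8 from 0.146 and 0.125 CPM to 2.91 and 1.72 CPM. These levels were low in all libraries, and genes of class II had close copies. The class II regulator Ciita had a fitted change of 0.55 and did not pass.

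Of 16 NF-kB and chemokine genes tested, 4 rose and 2 fell, with a median of 1.44 (6 and 2, median 1.49, without replicate 2). The neutrophil chemoattractant gene Cxcl1 had 21.9 and 16.5 CPM, and then 67.5 and 65.5 CPM. The growth factor gene Csf2 had 2.56 and 2.06 CPM, and then 9.74 and 9.25 CPM. The monocyte chemoattractant gene Ccl2 went from 0 and 0.125 CPM to 4.87 and 1.23 CPM, and Cxcl16 rose as well. All 4 were higher in each treated library. The mucosal chemokine gene Cxcl17 fell from 51.7 and 31.7 CPM to 2.84 and 1.47 CPM, and the adhesion molecule gene Icam1 fell from 164 and 112 CPM to 38.6 and 8.92 CPM.

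Few genes of stratified epithelium passed, though their share was above the 2.72% of all genes tested that rose. Of 13 squamous and basal genes tested, 2 rose and 0 fell, with a median of 0.59 (1 rose, median 0.39, without replicate 2). Ivl, the cornified envelope protein involucrin, had 38.4 and 27.4 CPM with vehicle and 141 and 166 CPM with 4-OHT, a log2 change of 2.22 ± 0.33 (adjusted p = 0.00807). Krt6b, a keratin of activated epidermis, went from 0 and 0.125 CPM to 2.10 and 4.91 CPM (adjusted p = 0.0361, and 0.0817 without replicate 2). Trp63, the basal cell factor, had a fitted change of 1.63 and did not pass, and Sox2 had 0 counts in all 4 libraries. Of 9 mast cell protease and placental type genes tested, 4 rose and 0 fell, with and without replicate 2, with a median of 2.87. These were Prl2c2, Prl2c3, Ctla2a and Ctla2b, which are 2 pairs of near copies. Prl2c3 had 4.68 and 3.5 CPM, and then 52.3 and 125 CPM. Ctla2a had 2.12 and 2.57 CPM, and then 44.5 and 34.4 CPM.

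**Figure D5:**
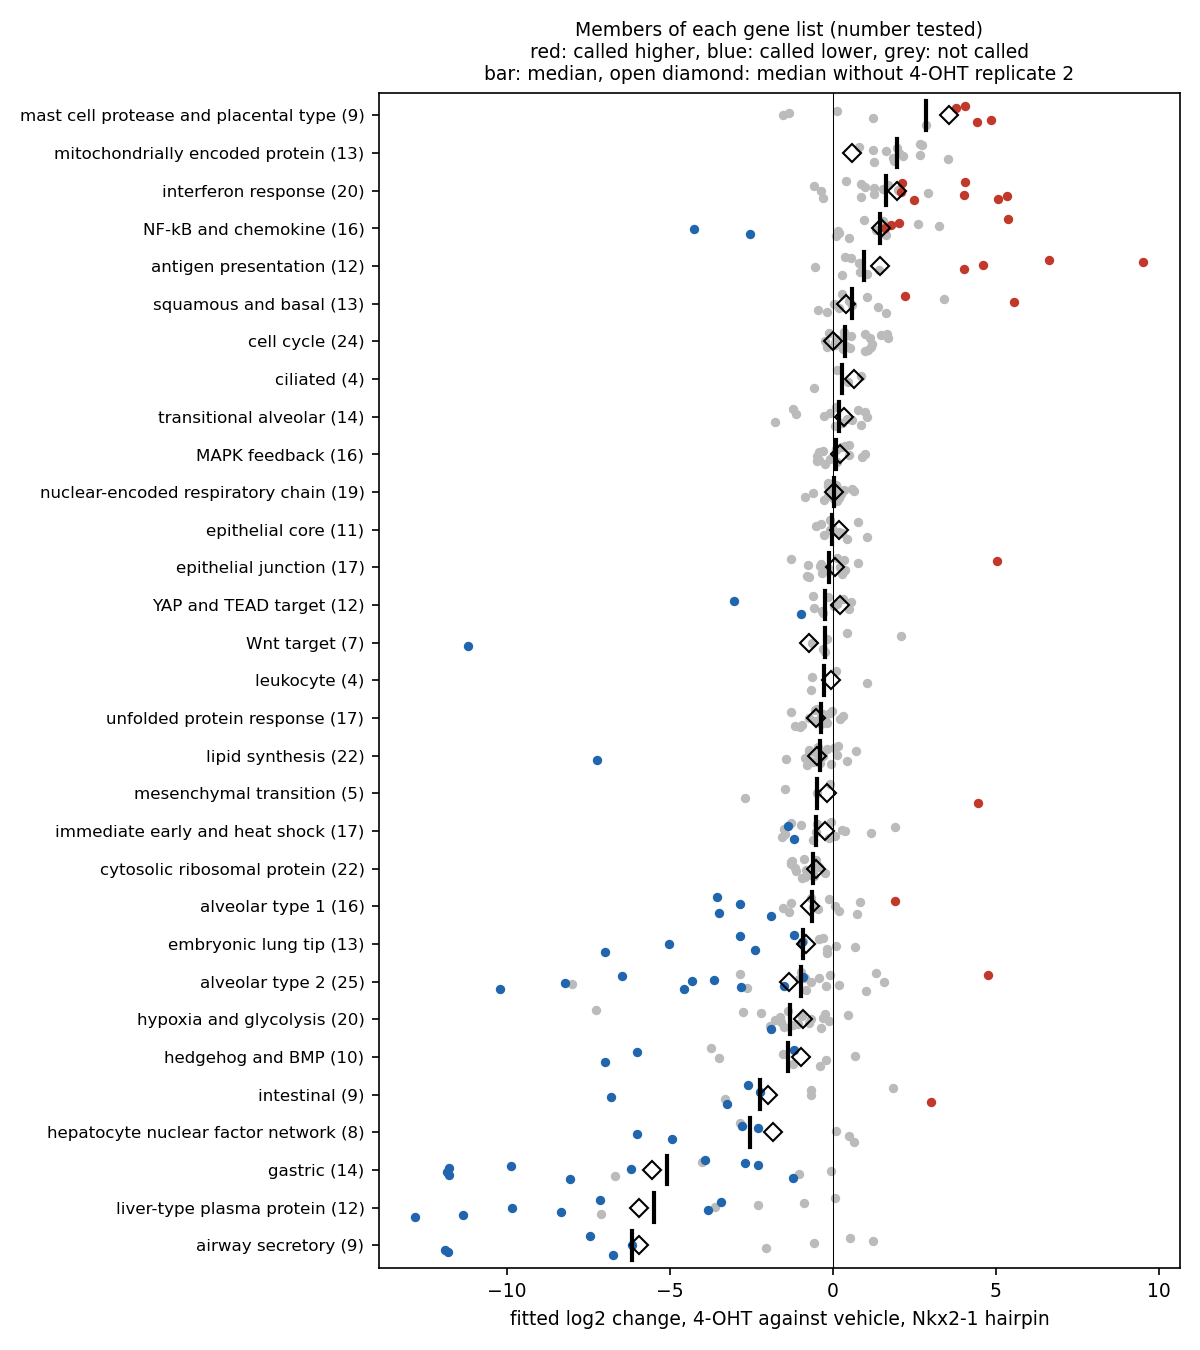
Fitted log2 change of 4-OHT against vehicle with the Nkx2-1 hairpin (x axis) for the tested members of each gene list with at least 4 of them (y axis, number tested in brackets); red and blue points rose and fell, grey points did not pass, bars are medians and open diamonds medians without 4-OHT replicate 2. Medians of the gastric, liver-type plasma protein and airway secretory lists lie below -5, and the bar and the diamond of the mitochondrially encoded list are the farthest apart, at 1.96 and 0.58; changes of genes with 0 counts in a group depend on the prior count.

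Several gene groups shifted in the fit with few or no calls, and in 2 of them the shift moved with replicate 2. Over all 14465 genes tested, 3566 had an unadjusted p under 0.05 in edgeR and 51.2% had a fitted change above 0. DESeq2 called 878 of all genes tested higher and 908 lower. All 13 mitochondrially encoded protein genes had a fitted change above 0, with a median of 1.96. In edgeR 0 passed, with or without replicate 2, and without it the median was 0.58. All 13 had an unadjusted p under 0.05, and DESeq2 called 10 higher. Their median GC content was 37.1%, and each was higher in replicate 2 than in replicate 1. With the GC correction edgeR called 2 of them higher, with a median of 1.18. Of 24 cell cycle genes 21 were above 0, with a median of 0.38, against 0.01 without replicate 2. EdgeR called 0 of them, 5 had an unadjusted p under 0.05, a share below that of all genes tested, and DESeq2 called 4 higher. With the GC correction edgeR called 1 of the cell cycle genes higher, with a median of 0.48. Replicate 2 was the higher of the treated libraries at 22 of the 24. Of 20 hypoxia and glycolysis genes 19 were below 0, with a median of -1.30 (-0.92 without replicate 2), and only Vegfa passed, while without replicate 2 edgeR called 0. In this list 13 had an unadjusted p under 0.05, and DESeq2 called 10 lower. All 22 cytosolic ribosomal protein genes were below 0, with a median of -0.62 (-0.50 without replicate 2). EdgeR called 0 of these, 10 had an unadjusted p under 0.05, and DESeq2 called 3 lower. With the GC correction edgeR called 2 of these and 1 of the hypoxia and glycolysis genes lower, with medians of -0.64 and -0.96.

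Other pathways gave few calls, in short lists. Over all genes tested 2.72% rose and 3.63% fell, and the lists below with 1 or 2 calls were above those shares. In the Wnt target list (7 tested) only Sp5 fell, from 18.0 and 20.9 CPM to 0 counts, at least 176-fold lower. In the YAP and TEAD target list (12 tested) Tgfb2 and Axl fell, Axl not without replicate 2 (adjusted p = 0.12). The immediate early genes Egr1 and Nr4a1 fell (2 of 17 tested, and only Egr1 without replicate 2, where Nr4a1 had an adjusted p of 0.0596), from 62.1 and 39.5 CPM to 18.0 and 20.9 CPM and from 12.7 and 16.5 CPM to 6.63 and 6.05 CPM, but neither passed with the GC correction (adjusted p = 0.243 and 0.201). Of 5 mesenchymal transition genes tested only Vim, the intermediate filament vimentin, rose, from 0.0732 and 0.125 CPM to 1.56 and 3.19 CPM. Of 17 epithelial junction genes only Cldn3 rose (2 rose and 1 fell without replicate 2). None of 11 epithelial core, 14 transitional alveolar, 16 MAPK feedback, 17 unfolded protein response, 19 nuclear-encoded respiratory chain or 4 ciliated genes passed in edgeR with all libraries. At an unadjusted p under 0.05 the counts in these 6 lists were 1, 5, 2, 3, 3 and 0, and DESeq2 called 1, 3, 1, 1, 0 and 0. Over all 14465 genes tested these counts were 3566 and 1786, and only the transitional alveolar list was above those shares. Without replicate 2, edgeR called 1 epithelial core gene higher, 3 transitional alveolar genes higher and 1 lower, and 0 in the other 4 lists.

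Summed levels of epithelial markers were far above those of other cell types. The epithelial core list summed to 7253 and 8321 CPM with vehicle and 11405 and 8911 CPM with 4-OHT. Of 10 fibroblast markers, Col1a2, Col3a1, Lum, Pdgfra and Thy1 had 0 counts in all 4 libraries, and the list summed to 0.655 to 1.54 CPM. Of 8 endothelial markers, Cdh5, Emcn and Cldn5 had 0 counts, and the list summed to 14.1 to 41.2 CPM. Of 12 leukocyte markers, Adgre1, Tyrobp and Laptm5 were among those with 0 counts, and the list summed to 8.64 to 15 CPM. All 5 erythroid markers had 0 counts. In bulk RNA, fewer cells of a type and less RNA per cell cannot be told apart.

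The response was set beside that of the same line with the scrambled hairpin, whose libraries are not shared with it. There 241 genes rose (1.67%) and 386 fell (2.67%) with 4-OHT. Called with both hairpins were 137 genes that rose (34.8% of the shNKX2-1 list and 56.8% of the shScramble list) and 265 that fell (50.5% and 68.7%), and 0 were called in opposite directions. Of the 919 genes called with the Nkx2-1 hairpin, 889 had a fitted change of the same sign with the scrambled hairpin. The same share over all genes tested is not given, so 889 is not read as an excess. Medians of the genes that rose were 2.12 with shNKX2-1 and 1.18 with shScramble, and of those that fell -2.84 and -2.04. These genes were chosen for their change with shNKX2-1, which tends to make the first value of each pair the larger.

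The difference between the 2 responses was called at 0 genes in edgeR, with the smallest adjusted p at 0.159, while 782 genes (5.41%) had an unadjusted p under 0.05. DESeq2 called 89, and edgeR without 4-OHT replicate 2 called 7, all of which were among the 89. Chosen after their values were seen, these 7 were Sfta2, Muc5b, Sema3a, Ces1g, Kbtbd11, Irs1 and Ank. Sfta2 had 97 and 92.9 CPM with vehicle and 103 and 102 CPM with 4-OHT under the scrambled hairpin, where it did not fall. The difference of its log2 changes was -2.93 ± 0.40 with all libraries (adjusted p = 0.159), -2.56 without replicate 2 (adjusted p = 0.0270). Muc5b had 324 and 286 CPM with vehicle and 30.2 and 33.1 CPM with 4-OHT under the scrambled hairpin, and its difference was -2.90 ± 0.64 (adjusted p = 0.447). Without replicate 2 the latter was -3.81 (adjusted p = 0.0432).

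The other 5 of these genes had the more negative fitted change with the scrambled hairpin. Sema3a, a secreted guidance cue, had 40.7 and 27.6 CPM with vehicle and 0.428 and 0.581 CPM with 4-OHT under the scrambled hairpin, and 10.4, 6.82, 4.74 and 17.1 CPM in the same order under the Nkx2-1 hairpin. Irs1, the insulin receptor substrate, had 52.1, 53.5, 11.8 and 9.62 CPM, and 40.1, 43.8, 41.1 and 63.1 CPM. Levels with the Nkx2-1 hairpin overlapped between treatments for both genes. Kbtbd11 fell with both hairpins, by 1.93 with shNKX2-1 and by 4.43 with shScramble on the log2 scale.

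Only some of the gene lists are set here beside their counts in the shScramble libraries. Under the scrambled hairpin 7 of 14 gastric genes fell, with a median of -3.43, as did 5 of 12 liver-type plasma protein genes (median -4.99), 6 of 25 alveolar type 2 genes (median -0.51) and 2 of 16 alveolar type 1 genes (median -0.31). Interferon response genes gave 3 higher and 2 lower calls of 20, with a median of 0.60. With all libraries, edgeR called no difference between hairpins at a gene of these lists, and without 4-OHT replicate 2 it called Sfta2. DESeq2 called Sfta2, Sftpb, S100g, Ctsh, Lyz2, Ager, Muc5ac, Apob and Ddx58. Of these, Apob had only 3.24 and 2.23 CPM with vehicle under the scrambled hairpin. Lyz2 had 0.366 and 3.82 CPM with vehicle and 0 CPM with 4-OHT under the Nkx2-1 hairpin. Medians lay further apart in other lists. Under the scrambled hairpin 3 of 9 intestinal genes fell (median 0.06), against a median of -2.23 with shNKX2-1. There 2 of 9 airway secretory genes fell (median -2.25), against -6.17 with shNKX2-1. DESeq2 called a difference at Guca2a, Muc5b and Scgb3a1 of these lists, and at members of further lists, Sp5 among them. Under the scrambled hairpin Scgb3a1 and Reg3g, both in the airway median, each had only 2 counts with vehicle and 0 with 4-OHT. Their response to 4-OHT could therefore not be measured there. Sp5 had 1.59 and 1.22 CPM with vehicle under the scrambled hairpin, against 18.0 and 20.9 CPM under the Nkx2-1 hairpin. The difference between hairpins was not tested for a list as a whole.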

How the data were processed

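RNA was extracted with a column kit and sequenced from libraries made with a directional kit, per the labels' protocols. The deposited values are raw read counts per Ensembl gene, with no normalisation. Per the submitters' processing notes, GRCm38, STAR 2.7.6a, featureCounts 1.5.1 and DESeq2 were used, with no role given. The sources used do not give the strand setting, the handling of multi-mapping reads or the annotation. Gene symbols came from GENCODE M21 for 99.5% of 55487 IDs.

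The 8 hairpin libraries (4 groups of 2, from the labels) were fitted together with edgeR 4.0.16 (R 4.3.3), using TMM scaling, the filterByExpr filter, 1 mean per group and its quasi-likelihood F test, with Benjamini-Hochberg adjustment over 14465 genes. Levels are TMM-scaled CPM, and log2 CPM have a prior count of 2. Scripts were tested on simulated data. Each group has 2 libraries, with totals of 13.6 to 16.3 M counts. Folds against 0 counts used a floor of 3 counts over the group; for 1 to 3 counts the ratio has a 95% exact interval.

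Named are Foxa1, Foxa2, Foxa3, Nkx2-1 and, for each direction, 15 called genes ranked by fitted change, of mean log2 CPM of at least 2 with non-overlapping groups, and per list up to 3 called members in the direction with more calls and 1 in the other. Further called members of a list, and uncalled ones, were added after their values were seen. The members and the 35 gene lists were chosen with earlier results of these data known. Neuroendocrine genes were listed too, and 0 of 2 tested passed (0 at an unadjusted p under 0.05, 0 in DESeq2). Alternatives were RLE scaling, DESeq2 1.42.0, no filter, only the 4 shNKX2-1 libraries, no mitochondrial genes, a minimum log2 change of 1, and leaving out each library. A correction for GC content (loess, span 0.5) was added after seeing the data. The other tables of the series were not used here, and some named genes and list members are not reported here, though they stay in the fits and counts.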

Additional observations from a re-analysis of the deposited data

How the results depend on the processing

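Against 394 genes higher and 525 lower, DESeq2 called 878 and 908, no filter on low counts 1151 and 1304, only the 4 shNKX2-1 libraries 74 and 171, and the GC correction, chosen after seeing the data, 768 and 816. The share of calls that were higher was 42.9%, 30.2% with only the 4 libraries, 27.6% and 23.3% without vehicle replicate 1 and 2, and 50.7% without 4-OHT replicate 2; without a shScramble library it was 33.5 to 40.1%, and in the other alternatives 42.0 to 49.2%. RLE scaling (398 and 521), no mitochondrial genes (388 and 535) and a minimum log2 change of 1 (383 and 512) stayed within 1.5 times. Leaving out 1 library gave 60 to 3218 higher and 198 to 3728 lower: the lowest counts were without vehicle replicate 2 (60 and 198) and replicate 1 (77 and 202), and the highest without 4-OHT replicate 1 (3218 and 3728). Without each shScramble library they were 171 to 235 and 338 to 353. Where a group has 1 library left, it is assumed to vary like the others. The difference between hairpins, at 0 higher and 0 lower, had 45 and 44 in DESeq2, 131 and 96 with no filter, and 0 to 1427 and 0 to 2125 with 1 library left out, the highest without 4-OHT replicate 1 (5 and 2 without replicate 2). Agreement in sign between the 4-OHT libraries was 100% and, with no filter, 97.5%. Nkx2-1 kept its direction and stayed above the threshold between vehicle groups in each alternative run. None of the 72 named genes changed direction; 22 no longer passed with only the 4 libraries, 21 and 22 without vehicle replicate 1 and 2, 7 without 4-OHT replicate 2, 10 or 11 without each shScramble library, 3 with the GC correction, and 1 each in DESeq2 and with the minimum log2 change. DESeq2 also called 1 of Foxa1 and Nkx2-1, the named genes that edgeR did not call with all libraries. The cause of these shifts was not tested, other than fewer libraries in the fits that leave some out. No paired analysis was possible because the labels carry no replicate numbers, and the numbers used here follow deposit order. Genes near 0 CPM are limited by depth.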

Other observations

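Of the 525 genes that fell, 46 had 0 counts in both 4-OHT libraries, and of the 394 that rose, 12 had 0 counts in both vehicle libraries. Long intergenic noncoding RNA genes made up 7 of the genes that rose and 14 of those that fell. Antxr1, an anthrax toxin receptor that binds collagen, and Tent5c, a poly(A) polymerase, were chosen after their values were seen, for a difference between hairpins in DESeq2 (adjusted p = 6.5e-08 and 5.18e-08). Antxr1 had 123.1 and 87.1 CPM with vehicle and 11.4 and 10.7 CPM with 4-OHT under the Nkx2-1 hairpin, against 111 and 66.7 CPM, and 84.8 and 111 CPM, under the scrambled hairpin. Tent5c had 27.9 and 53.2 CPM, and then 5.41 and 4.99 CPM, against 26.4 and 22.8 CPM, and 38.3 and 38.9 CPM. In both genes the treated libraries lay below the vehicle libraries under the Nkx2-1 hairpin, and edgeR's quasi-likelihood test of the difference gave an adjusted p of 0.159 for each.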
